A study of Arabidopsis thaliana and Arabidopsis lyrata subsp. lyrata and Arabidopsis halleri subsp. gemmifera with 10 samples.

Results

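Mature leaves of the A. thaliana-A. lyrata hybrid were compared with mature leaves of A. lyrata, one of the hybrid's parents. The comparison used 4 of the 10 arrays of the study, chosen by their titles, which are the 2 arrays of the hybrid and the 2 arrays of A. lyrata. The hybrid was labelled as A. thaliana x A. lyrata and the parent as A. lyrata ssp. lyrata. The other arrays held A. thaliana (Col), A. halleri ssp. gemmifera and the A. thaliana-A. halleri hybrid, also with 2 biological replicates each. Leaves were taken before flowering from plants kept at 22 C and a 16 h day. The sources used here do not give the direction of the crosses, the ploidy of the hybrids or the number of plants behind a replicate. Each p-value measures the spread between replicate arrays alone, shared over all 10 arrays of the study and not only the 4 compared.

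An interspecific hybrid carries both parents' nuclear genomes in each cell, so that a leaf transcript can come from either parent's copy of a gene. Chloroplasts and mitochondria carry small genomes of their own, which in Arabidopsis pass mainly through the seed parent, and chloroplasts also depend on many proteins made from nuclear genes. The Affymetrix ATH1 array measures a transcript by a set of short probes, the probe set, whose sequences were designed on A. thaliana. A base difference between an A. lyrata transcript and its probes lowers the signal, so that a lower transcript level in A. lyrata and a poorer match of its transcript to the probes cannot be told apart here.

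Values are signals in arbitrary units after every array was scaled to a mean of 500, with 2% trimmed at each end. Of 22746 probe sets that are not controls, 16656 passed a filter on low signal (at least 1 of the 5 groups averaging 104 or more on the log scale) and were tested. A difference is the hybrid minus A. lyrata on the log2(signal + 9.24) scale ± its standard error (SE), n = 2 arrays a group, from limma. A probe set was called higher or lower at a Benjamini-Hochberg adjusted p below 0.05 over all 16656. Before scaling, the trimmed mean was 32.8 and 24.3 on the A. lyrata arrays and 55.8 and 50.5 on the hybrid arrays, so that neither group had been deposited at 500. Replicates correlated at r = 0.907 for A. lyrata and r = 0.937 for the hybrid across probe sets. Of the leaf mesophyll markers, 2 of 8 had a probe set named here. RCA, Rubisco activase, read at least 26882 on every array, and SBPASE, a Calvin cycle enzyme, at least 7460. The root markers EXPA7 and PYK10 read at most 182, and no flower, seed or pollen marker had a probe set named here.

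The hybrid differed from A. lyrata at 3425 probe sets, 20.6% of those tested. It was higher at 1720 of 16656 (10.3%) and lower at 1705 (10.2%). The calls higher had a median difference of 1.94 and the calls lower one of -1.56, with 805 and 478 of them at least 4-fold apart. These calls come from the fit over all 10 arrays. A fit of only the 4 arrays compared called 2087 probe sets higher and 2336 lower. Both hybrid arrays lay above both A. lyrata arrays at 4341 probe sets (26.1%) and below both at 6831 (41%). Probe sets called higher had a median signal of 237 in A. lyrata, 981 in the hybrid and 1074 in A. thaliana. Those called lower had a median of 909 in A. lyrata, 297 in the hybrid and 300 in A. thaliana. These medians are on the trimmed-mean scale and over probe sets chosen for the hybrid's difference from A. lyrata. After the same scaling, the spike-in controls described next were 1.79-fold brighter in the hybrid than in A. thaliana.

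The direction of the calls depended on the scale. The 18 hybridization spike-in probe sets detect control transcripts, assumed here to have been added in equal amounts to every array. After scaling they were on average 2.03-fold brighter in A. lyrata than in the hybrid. With the arrays scaled to these spike-ins instead, 5223 probe sets were called higher (31.6% of 16522) and 168 lower (1.02%), and the median difference of all probe sets moved from -0.24 to 0.78. The share of calls that were higher was 50.2% on the trimmed-mean scale, 96.9% on the spike-in scale and 68.6% with arrays scaled to one median. Of the 1720 calls higher, 1719 were also higher on the spike-in scale. Of the 1705 calls lower, 168 were also lower there, and none was called higher. Leaving out any of the 4 arrays lowered both counts by more than 1.5 times, to 1046 higher and 553 lower without A. lyrata replicate 1, 1036 and 513 without A. lyrata replicate 2, 645 and 376 without hybrid replicate 1, and 807 and 814 without hybrid replicate 2.

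**Figure D1:**
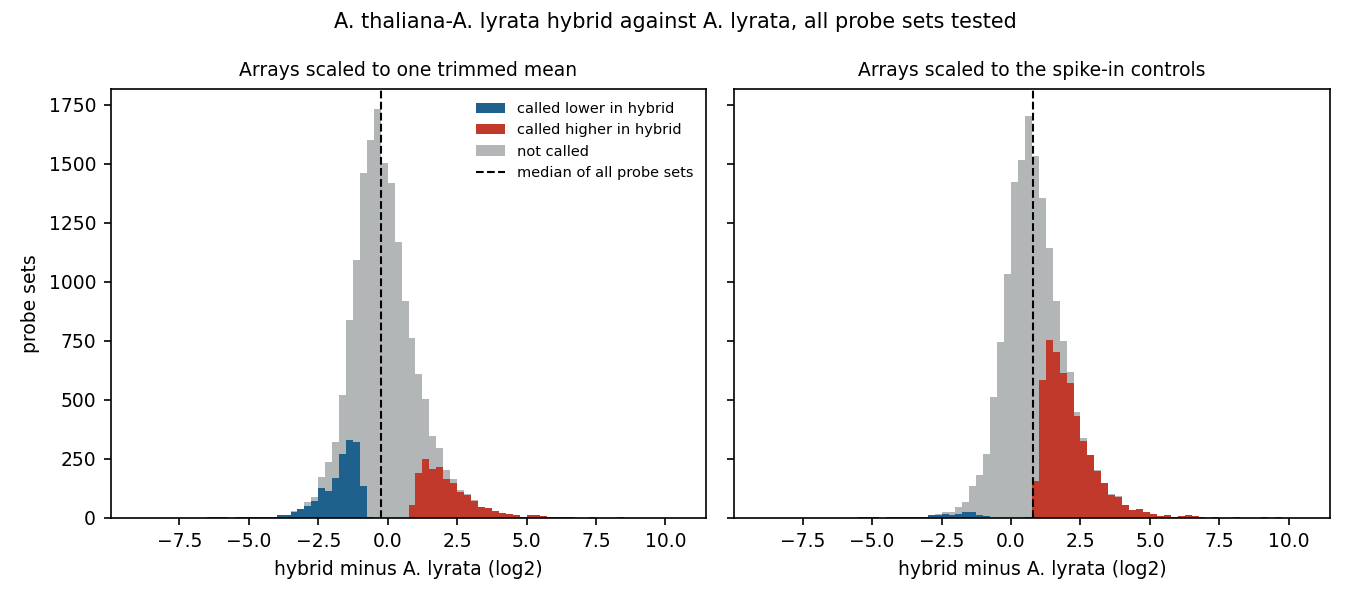
Histograms of the log2 difference, hybrid minus A. lyrata, for the probe sets tested, with arrays scaled to one trimmed mean (left) and to the spike-in controls (right, the 15874 probe sets tested on both scales). Red and blue bars are probe sets called higher and lower in the hybrid, grey bars those not called, and the dashed line is the median, at -0.24 on the left and near 0.78 on the right, where few calls lower are left.

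Among genes with a symbol, the largest rises in the hybrid were those of PMEAMT, ECS1, BCAT4, NQR and BHLH101. The names come from a partial annotation of the array, in which 120 of the probe sets called higher and 149 of those called lower had a single gene with a symbol. PMEAMT, a methyltransferase that makes the choline head group of membrane lipids, read 6702 and 8127 in the hybrid, 193 and 24.9 in A. lyrata and 6560 and 3702 in A. thaliana. Its difference was 6.47 ± 0.70 (adjusted p = 0.00045). ECS1, which encodes a cell wall protein, read 50035 and 64808 in the hybrid against 830 and 530 in A. lyrata, a difference of 6.40 ± 0.29 (adjusted p = 7.76e-06). CaS, a calcium sensor of the chloroplast's thylakoid membrane, read 17007 and 13444 in the hybrid and 854 and 1109 in A. lyrata (3.95 ± 0.33, adjusted p = 0.000152). The groups did not overlap for any of these genes, and the A. lyrata signal was the low one.

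NQR, an NADPH:quinone oxidoreductase, rose by 4.75 ± 0.49, from 26.2 and 89.1 in A. lyrata to 1574 and 1575 in the hybrid. AGL87, a MADS-box gene, rose by 4.15 ± 0.47, and RALFL32, a gene of the RALF family of secreted signalling peptides, by 4.09 ± 0.70. KELP, a transcriptional coactivator, rose by 3.90 ± 0.53, from 70.5 and 83.8 to 1227 and 1328. In A. lyrata AGL87 and RALFL32 read between 5.44 and 16.9, far under the filter signal of 104, where the order of signals means little. All 10 genes with the largest rises remained called on the spike-in scale. BHLH101 was the exception among them when arrays were left out, at adjusted p = 0.05 without hybrid replicate 2, just past the threshold.

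The 10 largest falls in genes with a symbol included the chloroplast-encoded rpoB, ycf3, petG, psbT, ndhH and accD. CHAT, the acetyltransferase that makes the green leaf volatile hexenyl acetate, read 5738 and 4845 in A. lyrata, 173 and 383 in the hybrid and 31.7 and 21.6 in A. thaliana. It fell by 4.31 ± 0.42 on the log2 scale (adjusted p = 0.000312), and both hybrid arrays lay between those of its parents. BSMT1, the methyltransferase that makes methyl salicylate and methyl benzoate, read 612 and 331 in A. lyrata against 33.9 and 7.76 in the hybrid, and fell by 4.09 ± 0.73 (adjusted p = 0.0059). Both falls remained called on the spike-in scale, at -3.29 and -3.13. LUL4, a ubiquitin ligase gene, read 348 and 146 in A. lyrata against 11.8 and 20.4 in the hybrid. LUL4 fell by 3.24 on the log2 scale (adjusted p = 0.0472), a call that was lost without any one of the 4 arrays (adjusted p from 0.0922 to 0.197) and on the spike-in scale (adjusted p = 0.135).

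**Figure D2:**
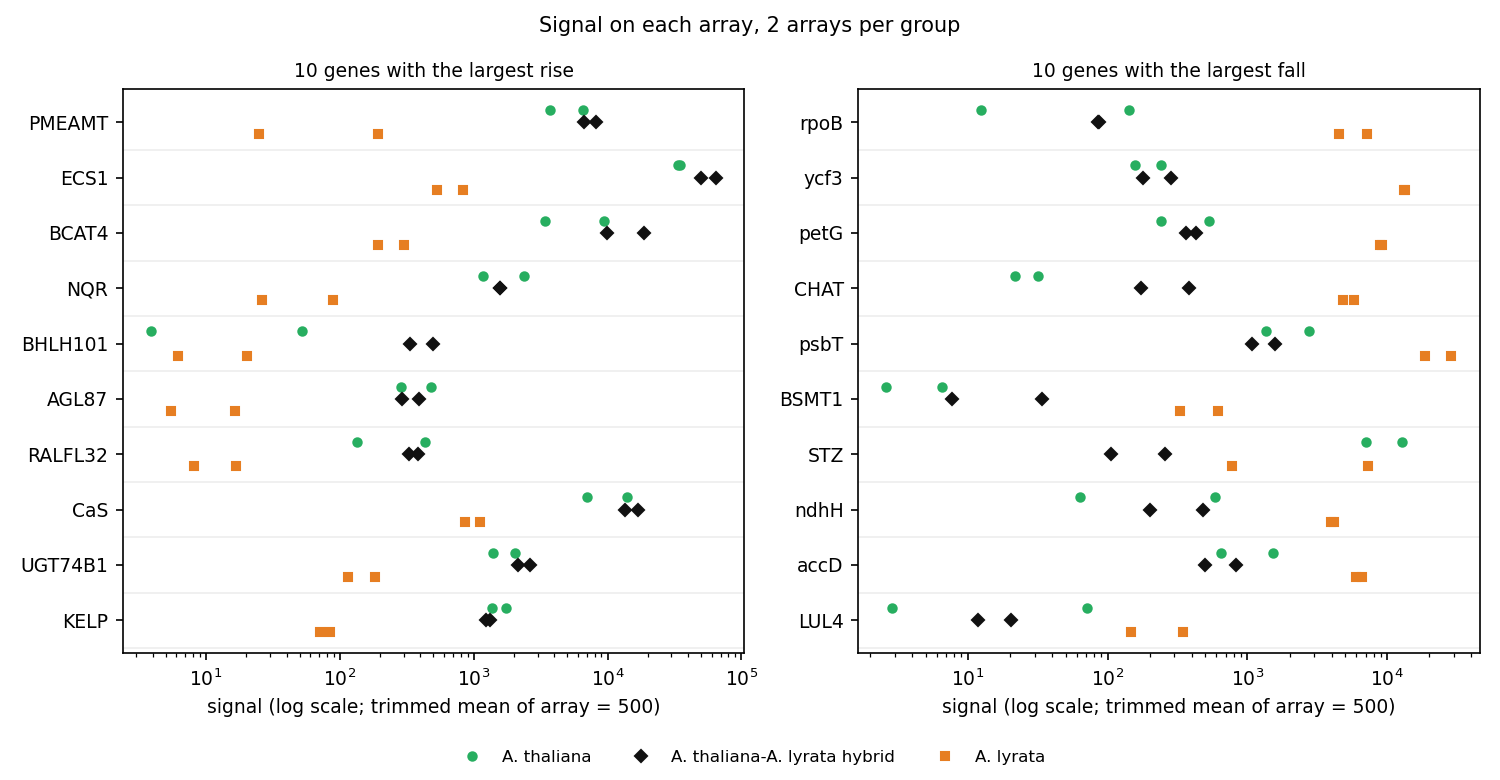
Signal on each array (log axis, arbitrary units, trimmed mean of each array 500) for the 10 genes with the largest rise (left) and the largest fall (right) in the hybrid relative to A. lyrata. Each symbol is 1 of 2 arrays of A. thaliana (green circles), the hybrid (black diamonds) and A. lyrata (orange squares), and in every row the hybrid and A. lyrata arrays do not overlap, as for PMEAMT with 6702 and 8127 against 193 and 24.9.

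Many chloroplast-encoded genes fell in the hybrid. Of 69 with a probe set, 68 were tested, 4 were called higher and 30 lower, or 44.1% lower against 10.2% of all probe sets, with a median difference of -0.92. On the spike-in scale 13 were called higher and 15 lower, with a median of 0.08. Of all probe sets, 31.6% were called higher and 1.02% lower on that scale, with a median of 0.78. The same counts were 4 and 25 after quantile normalization and 5 and 22 with median scaling. The 15 genes lower on the spike-in scale and all 4 called higher carried the same call on the trimmed-mean scale. With an array left out, between 17 and 20 genes were called lower, the lowest and highest of the 4 counts. In bulk leaf RNA, fewer chloroplasts or mesophyll cells and less transcript per cell cannot be told apart.

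The largest falls were spread over several chloroplast complexes. The gene rpoB, for a subunit of the chloroplast's own RNA polymerase, read 4502 and 7204 in A. lyrata, 85.3 and 86.1 in the hybrid and 12.5 and 142 in A. thaliana (-5.91 ± 0.70, adjusted p = 0.000778). The gene ycf3, for a factor that assembles photosystem I, read 13485 and 13079 in A. lyrata, 282 and 180 in the hybrid and 156 and 240 in A. thaliana (-5.82 ± 0.30, adjusted p = 8.08e-06). A small subunit of the cytochrome b6f complex, petG, read 9220 and 8911 in A. lyrata against 364 and 430 in the hybrid (-4.49 ± 0.38, adjusted p = 0.000159). For these genes the hybrid arrays overlapped those of A. thaliana and lay far below both A. lyrata arrays.

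Within photosystem II, whose genes include the core and several small subunits, 7 of 15 were called lower and none higher, beside 10.2% and 10.3% of all probe sets, and 6 lower and 2 higher on the spike-in scale. The small subunit gene psbT fell by 4.14 ± 0.40, from 28808 and 18486 to 1078 and 1576, while psbA, for the D1 reaction centre protein, read 34387 and 33078 in the hybrid and 37701 and 45201 in A. lyrata (-0.29 ± 0.31, adjusted p = 0.528). Photosystem I genes were called lower at 3 of 7, genes of the cytochrome b6f complex at 2 of 6 and ATP synthase genes at 4 of 6, with none higher. Spike-in scaling gave 2 lower and 1 higher, 1 lower and 2 higher, and 1 lower and 0 higher in that order. The medians moved from -1.63 to -0.61, from -0.60 to 0.41 and from -1.17 to -0.15. On the spike-in scale 1.02% of all probe sets were called lower and 31.6% higher, and their median was 0.78. The photosystem I core gene psaB differed by -0.98 ± 0.25 (adjusted p = 0.0245) and the ATP synthase gene atpB by -1.01 ± 0.26 (adjusted p = 0.0247). Both of these smaller differences came to 0.04 and 0.01 on the spike-in scale. The gene accD, for a subunit of the acetyl-CoA carboxylase that starts fatty acid synthesis, fell by 3.28 ± 0.39, and rbcL, for the large subunit of Rubisco, differed by -0.21 ± 0.24 (adjusted p = 0.555).

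All 4 chloroplast genes called higher encode NDH complex subunits or ribosomal proteins. The NDH complex carries electrons around photosystem I. Its gene ndhD read 10339 and 14140 in the hybrid, 1372 and 1152 in A. lyrata and 8345 and 7466 in A. thaliana (3.26 ± 0.25, adjusted p = 9.26e-05). The ribosomal protein gene rps4 read 14121 and 11300 in the hybrid and 1498 and 1759 in A. lyrata (2.95 ± 0.28, adjusted p = 0.000262). The others were ndhJ at 1.69 ± 0.39 (adjusted p = 0.0167), which was lost without any one of the 4 arrays (adjusted p up to 0.105), and rps16 at 1.33 ± 0.32 (adjusted p = 0.0195). In the same complexes ndhH fell by 3.65 ± 0.79, a call lost without A. lyrata replicate 1, A. lyrata replicate 2 or hybrid replicate 1 (adjusted p from 0.0611 to 0.0977), and 8 of 15 ribosomal protein genes were called lower, but 2 on the spike-in scale, where their median moved from -1.11 to -0.08. Genes of 1 complex thus went both ways. Of all probe sets, 10.2% were called lower on the trimmed-mean scale and 1.02% on the spike-in scale.

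**Figure D3:**
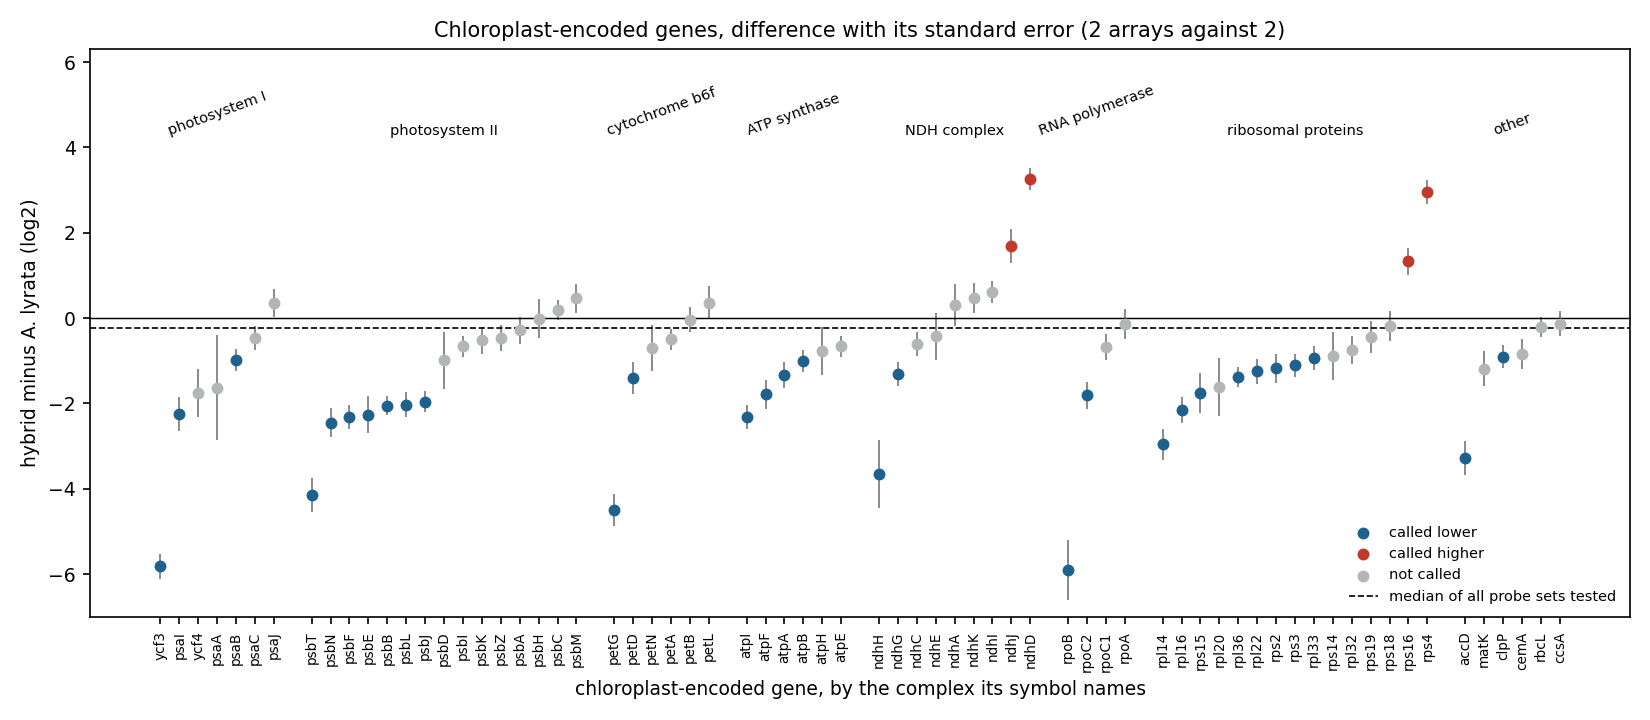
Log2 difference, hybrid minus A. lyrata, of the 68 chloroplast-encoded genes tested, ordered within the complex that their symbol names, with points for estimates and bars for ± SE (2 arrays against 2, trimmed-mean scale). Blue points are the 30 genes called lower, red points the 4 called higher and grey points those not called; on the spike-in scale the counts were 15 lower and 13 higher.

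Set against A. thaliana, with the same hybrid arrays, 9 of the 68 chloroplast genes were called higher and 0 lower by limma (22 and 0 at an unadjusted p below 0.05), beside 6.6% and 4.95% of all probe sets. The median difference from A. thaliana was 0.45. This direction did not hold on the spike-in scale, where 0 were called higher, 8 lower and the median was -0.38. Over all probe sets, 352 were called higher and 4067 lower than in A. thaliana on that scale. Median scaling and quantile normalization each gave 2 higher and 0 lower, and the fit of only the arrays compared gave no call. For the genes with the largest differences from A. lyrata, the hybrid's differences from A. thaliana were 0.73 for rpoB, 0.21 for ycf3, 0.14 for petG, -0.57 for psbT, 0.61 for ndhD and 0.48 for rps4, and none of these passed the test (adjusted p from 0.139 to 0.845). Only psbT of the 6 was called on the spike-in scale, lower than in A. thaliana at -1.41 (adjusted p = 0.0268). Of the 30 genes lower than in A. lyrata, 23 were not called against A. thaliana. A p that misses the threshold does not show that the hybrid and A. thaliana were alike.

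Mitochondrial genes, named here by their symbols, were called lower at 7 of 14 tested, of 16 with a probe set, and higher at 0 (10 and 0 at an unadjusted p below 0.05 in limma), beside 10.2% and 10.3% of all probe sets, with a median difference of -1.45. On the spike-in scale 3 were called lower and the median was -0.53, and with any one of the 4 arrays left out from 3 to 5 were. Beside these genes, 1.02% of all probe sets were called lower on the spike-in scale, where the median of all was 0.78. The gene ccb382, for a factor that attaches haem to cytochrome c, read 266 and 197 in the hybrid against 1583 and 1533 in A. lyrata, and 405 and 322 in A. thaliana (-2.72 ± 0.27, adjusted p = 0.000324). The respiratory complex I gene nad4 fell by 2.64 ± 0.35, from 5552 and 3915 to 778 and 706. The reading frame orfX fell by 1.85 ± 0.32, a call lost on the spike-in scale (-0.84, adjusted p = 0.106). In all of them both hybrid arrays lay below both A. lyrata arrays.

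Nuclear genes of photosynthesis held calls in both directions. Of 7 genes for photosystems and electron transport, 1 was called higher and 2 lower, beside 10.3% and 10.2% of all probe sets. Their median of -0.53 turned to 0.49 on the spike-in scale. PSAE-1, a stromal subunit of photosystem I, read 60258 and 53144 in the hybrid, 9399 and 11794 in A. lyrata and 26014 and 23075 in A. thaliana (2.43 ± 0.24, adjusted p = 0.000324). PSAN, a subunit on the other side of photosystem I, read 40821 and 29607 in the hybrid against 99591 and 101653 in A. lyrata (-1.53 ± 0.32, adjusted p = 0.012). PSBY, a photosystem II subunit, differed by -0.86 ± 0.26 (adjusted p = 0.044). Both falls were lost on the spike-in scale, where PSBY reversed to 0.16, and after leaving out an array. For PSAN this was A. lyrata replicate 1, A. lyrata replicate 2 or hybrid replicate 2 (adjusted p from 0.0589 to 0.0724), and for PSBY any of the 4 (adjusted p from 0.0749 to 0.214).

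In the Calvin cycle, which fixes carbon dioxide, PRK (phosphoribulokinase) read 35488 and 32881 in the hybrid and 9288 and 8497 in A. lyrata, a rise of 1.94 ± 0.27 (adjusted p = 0.00188). SBPASE differed by 1.07 ± 0.37 (adjusted p = 0.0689), but was called higher on the spike-in scale at 2.09 (adjusted p = 0.000596). RCA read 63777 and 65263 in the hybrid and 73049 and 66802 in A. lyrata (-0.11 ± 0.24, adjusted p = 0.759), and its sign turned under each other scaling tried, with a call higher on the spike-in scale at 0.91 (adjusted p = 0.0122). The Calvin cycle list thus had 1 of 3 genes called higher on the trimmed-mean scale, 2 with median scaling and 3 on the spike-in scale. Chlorophyll synthesis held a gene called in each direction among 4 tested, or 3 higher and 1 lower on the spike-in scale. Beside both lists, 10.3% of all probe sets were called higher and 10.2% lower, or 31.6% and 1.02% on the spike-in scale. PORB, a light-dependent protochlorophyllide reductase, read 891 and 548 in the hybrid, 3793 and 3129 in A. lyrata and 850 and 404 in A. thaliana (-2.29 ± 0.37, adjusted p = 0.00405), and stayed lower on the spike-in scale at -1.27. CHLM, the methyltransferase at an earlier step, rose by 2.05 ± 0.49 (adjusted p = 0.0189), but its call was lost without any one array (adjusted p from 0.0514 to 0.122).

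Several genes of glucosinolate synthesis rose in the hybrid. Glucosinolates are the sulfur-rich defence compounds of the cabbage family, and the aliphatic ones start from methionine. Of 25 listed genes for the aliphatic branch, 5 had a probe set and were tested. Of these, 3 were called higher and 0 lower, with a median of 3.05, beside 10.3% and 10.2% of all probe sets. With median scaling and with quantile normalization 3 were called higher. On the spike-in scale 4 were, where 31.6% of all probe sets were called higher. BCAT4, the aminotransferase that opens the lengthening of the methionine chain, read 9819 and 18573 in the hybrid, 299 and 193 in A. lyrata and 9431 and 3398 in A. thaliana (5.76 ± 0.50, adjusted p = 0.000194). AOP1, a dioxygenase of the family that modifies the side chain, read 721 and 582 in the hybrid and 122 and 38.5 in A. lyrata (3.05 ± 0.53, adjusted p = 0.00506). AOP3, of the same family, read 51.6 and 13.4 in the hybrid and 147 and 64.0 in A. lyrata (-1.53 ± 0.61, adjusted p = 0.104). UGT74B1, the glucosyltransferase of the core pathway that the indole branch shares, read 2138 and 2634 in the hybrid, 183 and 116 in A. lyrata and 2048 and 1400 in A. thaliana (3.94 ± 0.33, adjusted p = 0.000154).

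Among 32 UDP-glycosyltransferases tested, which attach sugars to hormones, flavonoids and defence compounds, 7 were called higher and 3 lower, or 21.9% and 9.38%, beside 10.3% and 10.2% of all probe sets. With spike-in scaling 12 were called higher and 2 lower, where 31.6% and 1.02% of all probe sets were. With any one of the 4 arrays left out, from 2 to 4 were called higher and from 0 to 2 lower. UGT76C1, which glucosylates cytokinins, read 267 and 457 in the hybrid and 58.0 and 35.6 in A. lyrata (2.71 ± 0.43, adjusted p = 0.00327). UGT71C4 rose by 1.22 ± 0.25, a call lost at adjusted p from 0.0516 to 0.0583 without A. lyrata replicate 2 or either hybrid array. UGT85A3 read 763 and 470 in A. lyrata, 88.5 and 101 in the hybrid and 23.7 and 5.63 in A. thaliana (-2.55 ± 0.50, adjusted p = 0.009), with the hybrid arrays between those of the parents, and its call was lost without A. lyrata replicate 1 or hybrid replicate 1 (adjusted p = 0.0608 and 0.061). UGT78D3, a flavonol arabinosyltransferase, read 336 and 322 in A. lyrata against 19.0 and 67.8 in the hybrid (-2.86 ± 0.80, adjusted p = 0.0331), a call lost on the spike-in scale and without either A. lyrata array or hybrid replicate 1 (adjusted p from 0.112 to 0.183). Members of this family have similar sequences, and cross-hybridization among them was not tested.

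Beta-glucosidases, which release sugars from stored conjugates, were called lower at 3 of 12 (25%) and higher at 0, beside 10.2% and 10.3% of all probe sets. On the spike-in scale 1 was called lower and 3 higher, beside 1.02% and 31.6% of all probe sets. Their median moved from -1.06 to 0.21, and that of all probe sets from -0.24 to 0.78. BGLU44 read 501 and 777 in the hybrid, 3819 and 3131 in A. lyrata and 1399 and 1454 in A. thaliana (-2.45 ± 0.36, adjusted p = 0.00227). BGLU43, its neighbour in name, read 61.9 and 93.8 in the hybrid and 313 and 424 in A. lyrata (-2.13 ± 0.49), and BGLU28 read 36.6 and 45.1 against 172 and 532 (-2.65 ± 0.72). The calls of BGLU43 and BGLU28 were lost on the spike-in scale, that of BGLU43 without A. lyrata replicate 2 or hybrid replicate 1 (adjusted p = 0.086 and 0.0971), and that of BGLU28 without A. lyrata replicate 2 or either hybrid array (adjusted p from 0.0883 to 0.171).

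Tau glutathione S-transferases, which conjugate glutathione to toxic compounds, had 1 call in each direction among 8 tested, or 3 higher and 1 lower on the spike-in scale. GSTU27 read 13612 and 14481 in A. lyrata, 2656 and 2722 in the hybrid and 1193 and 1404 in A. thaliana (-2.38 ± 0.22, adjusted p = 0.000262) and remained lower on the spike-in scale. GSTU16 rose by 2.36 ± 0.49, and was not called without A. lyrata replicate 1 or either hybrid array (adjusted p from 0.0536 to 0.0633). Of 15 cytochrome P450 genes, which oxidize many plant metabolites, 2 were called higher and 0 lower (4 and 0 at an unadjusted p below 0.05 in limma), or 6 and 0 on the spike-in scale. The 2 were CYP71B34 at 1.97 ± 0.47 and CYP71B6 at 0.99 ± 0.27. Beside both families, 10.3% of all probe sets were called higher and 10.2% lower, or 31.6% and 1.02% on the spike-in scale. The call of CYP71B34 was lost without A. lyrata replicate 2 or either hybrid array (adjusted p from 0.0599 to 0.116), and that of CYP71B6 without any one array (adjusted p from 0.0964 to 0.136).

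Stress genes moved in both directions. Of 5 cold and drought genes tested, 1 was called higher and 1 lower, or 2 and 1 on the spike-in scale. The shares of all probe sets were 10.3% higher and 10.2% lower, or 31.6% and 1.02% on the spike-in scale. COR15A, which protects chloroplast membranes during freezing, read 468 and 692 in the hybrid, 116 and 28.7 in A. lyrata and 12117 and 2374 in A. thaliana (3.07 ± 0.75, adjusted p = 0.0206). STZ, a zinc finger repressor induced by salt and cold, read 105 and 259 in the hybrid, 7328 and 772 in A. lyrata and 7060 and 12765 in A. thaliana (-3.77 ± 0.86, adjusted p = 0.016). The A. lyrata arrays differed widely for STZ, and its call was lost without A. lyrata replicate 1 (adjusted p = 0.0585) or hybrid replicate 1 (adjusted p = 0.113). That of COR15A was lost without A. lyrata replicate 2 or either hybrid array (adjusted p from 0.0789 to 0.127). COR47, a dehydrin, differed by -1.27 ± 0.44 (adjusted p = 0.0659) and COR15B by 1.09 ± 0.42 (adjusted p = 0.0904).

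Several genes of defence, the clock and leaf metabolism missed the threshold. PDF1.2b, an antifungal defensin, read 4793 and 8079 in the hybrid, 14187 and 30626 in A. lyrata and 344 and 131 in A. thaliana (-1.74 ± 0.56, adjusted p = 0.0519). CSLA01, which encodes a mannan synthase of the cell wall, read 1420 and 1471 in the hybrid, 5234 and 3919 in A. lyrata and at most 3.8 in A. thaliana (-1.64 ± 0.57, adjusted p = 0.0673). In both genes the hybrid arrays lay between those of the parents. PDF1.2, the other defensin tested, read 59.7 and 68.7 in the hybrid and 50.4 and 168 in A. lyrata (-0.49 ± 0.62, adjusted p = 0.593). Cross-hybridization between defensins was not tested. GI, a clock gene, read 557 and 447 in the hybrid and 1033 and 1140 in A. lyrata (-1.11 ± 0.68, adjusted p = 0.264). It read 162 and 1162 in A. thaliana, and that spread enters the SE, which draws on all 10 arrays. QQS, a gene of starch content known only from A. thaliana, read 82.4 and 80.7 in the hybrid, 12.0 and 16.3 in A. lyrata and 1180 and 3805 in A. thaliana (1.96 ± 0.72, adjusted p = 0.0799). CML38, a calmodulin-like gene, read 6.12 and 31.1 in the hybrid, 46.1 and 7.53 in A. lyrata and 1833 and 5763 in A. thaliana (-0.29 ± 0.73, adjusted p = 0.8). Its arrays overlapped between the hybrid and A. lyrata, both far below A. thaliana. No member of the lists for phenylpropanoids, heat shock, salicylic acid, jasmonate, senescence, the clock, flowering, gene silencing or cell division was called by limma. For phenylpropanoids this says little, because A. thaliana arrays that differed widely enter the SE. DFR read 12.9 and 13384 in A. thaliana and had an SE of 2.21. UF3GT read 21 and 5444 there, with an SE of 1.90. These 9 lists held 20 genes tested, of which 1 was higher and 2 lower at an unadjusted p below 0.05. That holds on the trimmed-mean scale. The heat shock gene AT5G48570 (1.43, adjusted p = 0.051) was called higher on the spike-in scale at 2.29 (adjusted p = 0.00762), and the heat shock list also had 1 call higher with median scaling and with quantile normalization. The senescence list had 1 call higher on the spike-in scale, PPDK at 1.43 (adjusted p = 0.0415).

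Metal and sugar transport genes held single strong rises. CCS, the chaperone that delivers copper to superoxide dismutase, read 1038 and 1906 in the hybrid, 351 and 122 in A. lyrata and 529 and 425 in A. thaliana (2.70 ± 0.48, adjusted p = 0.00578), the only call among 5 metal genes on the trimmed-mean scale. MTP11 and bZIP19 were also called higher on the spike-in scale, at 1.31 and 1.27. SWEET17, a fructose transporter of the vacuole, read 1349 and 1788 in the hybrid, 293 and 208 in A. lyrata and 383 and 409 in A. thaliana (2.61 ± 0.45, adjusted p = 0.00518). SWEET9, the sucrose exporter of nectaries, read 10.1 and 44.2 in the hybrid and 110 and 273 in A. lyrata (-2.52 ± 0.65, adjusted p = 0.0256), a call lost without A. lyrata replicate 2 (adjusted p = 0.139) or hybrid replicate 1 (adjusted p = 0.152). The other 9 of 11 SWEET genes were not called. On the spike-in scale SWEET9 did not pass the filter and was not tested, while 3 SWEET genes were called higher and 0 lower. Beside the metal and SWEET genes, 10.3% of all probe sets were called higher and 10.2% lower, or 31.6% and 1.02% on the spike-in scale.

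Methionine sulfoxide reductases, which repair oxidized proteins, were called higher at 1 and lower at 2 of 4 genes, beside 10.3% and 10.2% of all probe sets. MSRB5 read 526 and 514 in the hybrid and 2745 and 2451 in A. lyrata (-2.30 ± 0.27, adjusted p = 0.000817), and MSRB3 fell by 1.96 ± 0.34, a call lost on the spike-in scale. MSRB6 rose by 2.79 ± 0.65, from 188 and 145 to 2118 and 673, and was not called without either A. lyrata array or hybrid replicate 1 (adjusted p from 0.0614 to 0.125). Among glutamate receptor-like channels, GLR2.7 rose by 2.81 ± 0.58 and GLR3.6 fell by 1.51 ± 0.37. The call of GLR2.7 was lost without A. lyrata replicate 1 or either hybrid array (adjusted p from 0.0502 to 0.0671), and that of GLR3.6 without A. lyrata replicate 1 or hybrid replicate 1 (adjusted p = 0.105 and 0.138) and on the spike-in scale.

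TRY, which limits trichome formation, read 1142 and 866 in the hybrid, 277 and 212 in A. lyrata and 999 and 706 in A. thaliana (3.99-fold higher in the hybrid, adjusted p = 0.00398). Its call held with each array left out. FMA (FAMA), a guard cell fate gene, differed by 0.38 ± 0.28 (adjusted p = 0.349). The weaker calls of IAA18 at 0.90 ± 0.28, CSLD2 at -1.78 ± 0.54 and ATG8D at -0.96 ± 0.30 had adjusted p of 0.0455, 0.0452 and 0.0467. They were lost without an array, IAA18 and ATG8D without any of the 4 and CSLD2 without A. lyrata replicate 2 or either hybrid array (adjusted p up to 0.243). IAA18 is an auxin repressor, CSLD2 a cellulose synthase-like gene of the cell wall and ATG8D an autophagy protein. On the spike-in scale CSLD2 and ATG8D were not called, and ATG8D reversed to 0.05.

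Genes often used as constant references also differed between these groups. TUA6, an alpha-tubulin, read 3983 and 4251 in the hybrid, 566 and 643 in A. lyrata and 2732 and 2418 in A. thaliana (2.75 ± 0.23, adjusted p = 0.000167). TUB5, a beta-tubulin, read 514 and 528 in the hybrid and 2254 and 1826 in A. lyrata (-1.94 ± 0.50, adjusted p = 0.0251), and TUB6 differed by 0.40 ± 0.25 (adjusted p = 0.278). PEX4, a ubiquitin-conjugating enzyme, differed by -0.88 ± 0.27 (adjusted p = 0.0443). Of 5 reference genes, 1 was called higher and 3 lower, or 2 and 0 on the spike-in scale, where PEX4 reversed to 0.14. The shares of all probe sets were 10.3% higher and 10.2% lower, or 31.6% and 1.02% on the spike-in scale. The calls of TUB5 and PEX4 were lost without any one array (adjusted p from 0.0617 to 0.244).

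**Figure D4:**
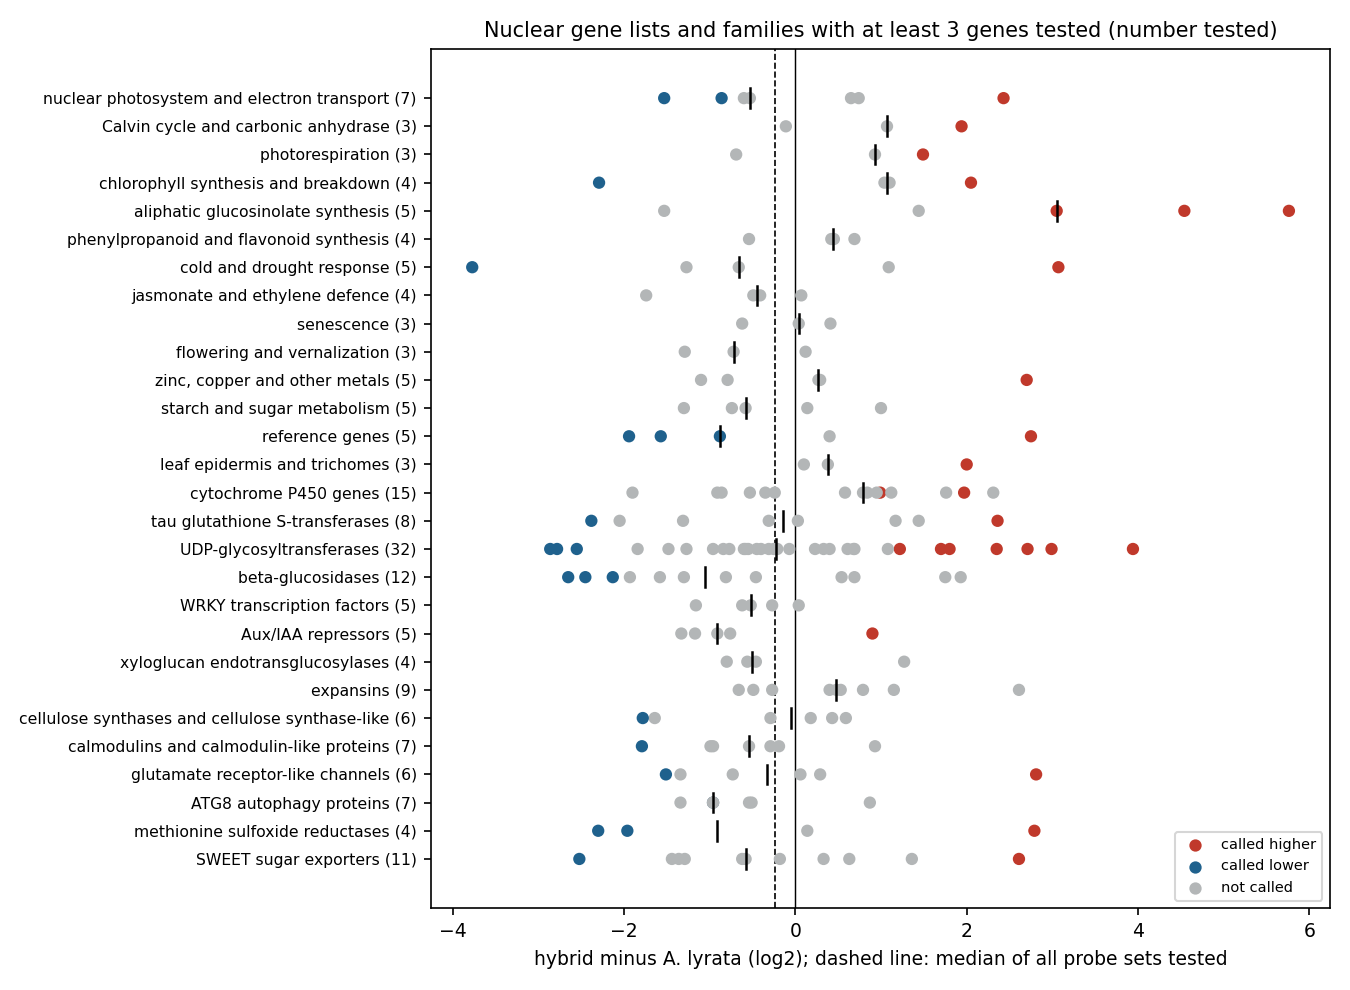
Log2 difference, hybrid minus A. lyrata, of the nuclear genes in each list or family with at least 3 genes tested (number tested in brackets), 1 point a gene, red and blue for genes called higher and lower, with short vertical lines for each list's median and a dashed line for the median of all probe sets, -0.24. Aliphatic glucosinolate synthesis has 3 of 5 genes called higher and beta-glucosidases 3 of 12 called lower; medians between -0.24 and -1.06 sit above 0 on the spike-in scale, save that of methionine sulfoxide reductases at -0.02.

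At 124 probe sets the hybrid was called higher than both parents, and at 120 it was called lower than both, with hybrid arrays that overlapped neither parent. These counts rest on comparisons that share the hybrid arrays. Both counts depended on the scale and on the arrays in the fit. On the spike-in scale all 124 higher probe sets were called higher than A. lyrata, but 39 higher than A. thaliana, while all 120 lower ones were called lower than A. thaliana, but 23 lower than A. lyrata. Calls against both parents thus held at 39 and 23 on the spike-in scale, at 84 and 82 with median scaling, at 89 and 88 with quantile normalization, and at 10 and 13 in fits of only the arrays compared. A single gene with a symbol was known for 12 and 9 of them. BHLH101, a regulator of the response to iron shortage, read 334 and 498 in the hybrid, 6.22 and 20.2 in A. lyrata and 52.2 and 3.90 in A. thaliana. It was 4.29 ± 0.81 above A. lyrata (adjusted p = 0.0073) and 3.87 above A. thaliana (adjusted p = 0.0169, or 0.0831 with only the arrays compared), and without hybrid replicate 2 the adjusted p against A. lyrata was 0.05, just past the threshold. SKU5, a cell wall protein of directional growth, read 3437 and 2051 in the hybrid, 326 and 459 in A. lyrata and 458 and 169 in A. thaliana (2.75 ± 0.53 and 3.21 above them), and was not called against A. thaliana with only the arrays compared (adjusted p = 0.0644). Its call against A. lyrata was lost without A. lyrata replicate 1 (adjusted p = 0.0543) or hybrid replicate 1 (adjusted p = 0.0705). SWEET17, PSAE-1 and PRK, given above, also exceeded both parents, by 1.95, 1.21 and 1.25 against A. thaliana (adjusted p = 0.0254, 0.0149 and 0.0198) on the trimmed-mean scale. Spike-in scaling gave 1.12, 0.37 and 0.41, and none was called (adjusted p = 0.1, 0.255 and 0.241). None was called with only the arrays compared (adjusted p = 0.0653, 0.125 and 0.145), and PSAE-1 and PRK were not called after quantile normalization (adjusted p = 0.629 and 0.308).

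Below both parents lay STZ, with 5.76 less than A. thaliana on the log2 scale, and UGT73B5, a glycosyltransferase induced by stress, which read 4.36 and 2.84 in the hybrid, 90.3 and 68.4 in A. lyrata and 123 and 246 in A. thaliana. CML37, a calmodulin-like gene, read 17.9 and 1.90 in the hybrid, 79.6 and 31.3 in A. lyrata and 489 and 1015 in A. thaliana. NDB3, an alternative NADH dehydrogenase of the mitochondrion, and TET9, a tetraspanin, read between 10.4 and 16.3 in the hybrid and at least 57.7 in both parents. The hybrid signals of UGT73B5, CML37, NDB3 and TET9 were all under 104, so that their differences from A. lyrata, -2.78 for UGT73B5, -1.79 for CML37, -2.64 for NDB3 and -2.57 for TET9, rest on dim probe sets. Of the genes below both parents, UGT73B5 and NDB3 were not called against A. thaliana with only the arrays compared (adjusted p = 0.0514 and 0.138), and TET9 was not tested in that fit. Against A. lyrata, TET9 lost its call with only the arrays compared. CML37 was not called against A. lyrata on the spike-in scale (-1.03, adjusted p = 0.222). All of them, and STZ, but not TET9, lost the call against A. lyrata without at least 1 array. For NDB3 this was A. lyrata replicate 1 (adjusted p = 0.0541), for UGT73B5 A. lyrata replicate 1 or either hybrid array (adjusted p from 0.0508 to 0.0543), for CML37 any of the 4 (adjusted p from 0.0508 to 0.24) and for STZ A. lyrata replicate 1 or hybrid replicate 1 (adjusted p = 0.0585 and 0.113).

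The same contrast in the other cross, the A. thaliana-A. halleri hybrid against A. halleri, compares other arrays. Its calls are still not independent of those in the lyrata cross. The fit over all arrays gave both contrasts the same estimate of spread at each probe set. Both crosses also have A. thaliana as a parent and were read with probes designed on A. thaliana. The contrast in the halleri cross gave 1459 probe sets higher (8.76%) and 1049 lower (6.3%). At 744 probe sets the hybrid was higher in both crosses, which is 43.3% of the calls higher in the lyrata cross and 51% of those in the halleri cross. At 386 it was lower in both, 22.6% and 36.8% of the calls. A further 16 probe sets called higher and 19 called lower in the lyrata cross were called the other way in the halleri cross. BCAT4 rose in the halleri cross by 3.54 (adjusted p = 0.00253), PMEAMT by 3.81 (adjusted p = 0.00777) and ndhD by 4.48 (adjusted p = 1.79e-05). The gene ycf3 fell by 4.02 and rpoB fell by 4.73 there. Of the 68 chloroplast genes tested, 16 were called lower and 8 higher in the halleri cross. In both crosses 13 of the 68 were called lower and 4 higher, beside 386 and 744 of all 16656 probe sets. The arrays of the halleri cross had all been deposited at a trimmed mean of 500 and those of the lyrata cross had not, so that deposited scaling and cross cannot be told apart in the test that follows.

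The difference between the crosses was itself called at 229 probe sets (1.37% of those tested), 107 with a larger value in the lyrata cross and 122 with a smaller one. Of these, 159 were also called against A. lyrata, and 35 were called in opposite directions in the 2 crosses. BHLH101 was the plainest case with a symbol. It rose in the lyrata cross and fell in the halleri cross, where it read 5.79 and 5.89 in the hybrid and 389 and 132 in A. halleri, so that the difference between the crosses was 8.26 (adjusted p = 0.0114). ECS1 rose in both, by 6.40 in the lyrata cross and 1.56 in the halleri cross, a difference of 4.84 (adjusted p = 0.00111). CaS read 7150 and 7250 in the A. halleri hybrid and 6236 and 6094 in A. halleri, a difference of 0.22 there (adjusted p = 0.668), and the crosses differed by 3.72 (adjusted p = 0.00752).

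AN, which shapes leaf cells, read 261 and 236 in the lyrata cross hybrid, 15.9 and 8.08 in A. lyrata, 377 and 417 in the other hybrid and 531 and 621 in A. halleri, and the crosses differed by 4.15 (adjusted p = 0.00567). A. lyrata thus stood apart from the other groups. CHAT was low in A. halleri, at 83.4 and 129, and the crosses differed by -4.89 (adjusted p = 0.0067). YLS5, known from yellowing leaves, rose by 1.99 ± 0.36 against A. lyrata and differed between the crosses by 2.65 (adjusted p = 0.0407). Its call against A. lyrata reached an adjusted p of 0.0505 without hybrid replicate 1. The chloroplast gene psbB, for a core antenna of photosystem II, read 2204 and 2471 in the hybrid and 9514 and 9906 in A. lyrata, against 6433 and 6863 in the other hybrid and 5456 and 4871 in A. halleri (difference between the crosses -2.42, adjusted p = 0.00907). The mitochondrial gene ccb382 differed by -0.65 in the halleri cross (adjusted p = 0.13), and the crosses differed by -2.07 (adjusted p = 0.0342).

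HL, a phosphatase of sulfur metabolism, fell by 1.21 ± 0.29 in the lyrata cross and rose by 1.36 in the halleri cross (difference -2.58, adjusted p = 0.0194). SAPX, the ascorbate peroxidase of the chloroplast stroma, fell by 1.31 ± 0.30 against A. lyrata, from 972 and 672 to 363 and 281, and differed between the crosses by -2.19 (adjusted p = 0.0408). Both falls against A. lyrata were lost on the spike-in scale, that of HL also without any one array (adjusted p from 0.0551 to 0.114) and that of SAPX without A. lyrata replicate 1 or either hybrid array (adjusted p from 0.0534 to 0.0945). The calls between the crosses numbered from 11 to 61 larger and from 13 to 46 smaller when each of the 8 arrays was left out.

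**Figure D5:**
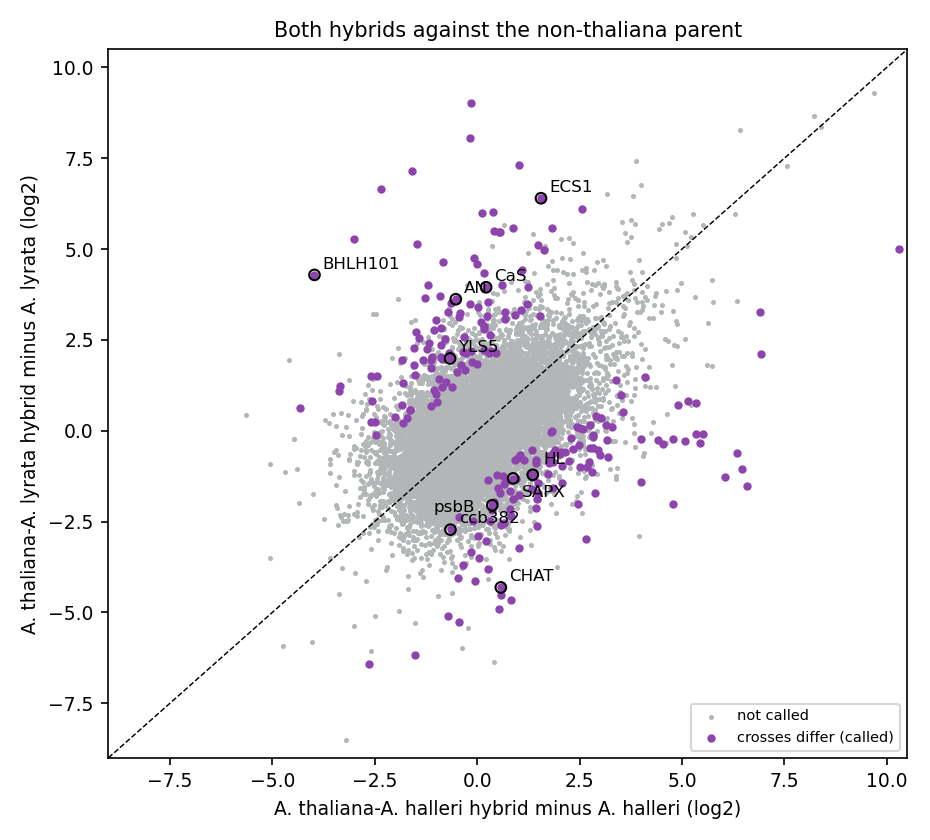
Log2 difference of the A. thaliana-A. lyrata hybrid from A. lyrata (vertical axis) against that of the A. thaliana-A. halleri hybrid from A. halleri (horizontal axis), 1 point for each of 16656 probe sets, with a dashed line where both are equal. Purple points are the 229 probe sets at which the crosses differed, and the labelled genes lie off the line, BHLH101 with a difference of 8.26 above it and CHAT with -4.89 below it.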

How the data were processed

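Leaf RNA was hybridised to Affymetrix ATH1 arrays from 500 ng of total RNA, per the labels. Per the submitters' processing notes, GCOS and MAS5 (no versions stated) gave the intensity that was deposited for each probe set, on a linear scale. No detection calls were used.

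Groups came from the sample titles. All arrays were brought to the same 2% trimmed mean, 500, and 64 control probe sets were left out. Probe sets were kept if a group's mean log2 signal reached the 40th percentile of all values (73.2% of them). limma 3.58.1 in R 4.3.3 (lmFit, then eBayes with trend) was fitted to log2(signal + 9.24) over all 10 arrays (residual df 5), with an offset taken from the 10th percentile. The 4 contrasts were the hybrid against A. lyrata and against A. thaliana, the other hybrid against A. halleri, and the difference between the crosses. Alternatives were other scalings, offsets, filters, sets of arrays, a replicate block, no trend and a stricter threshold. The number of arrays limits the precision.

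A partial annotation gave 1 gene to 13513 probe sets, several to 503 and none to 8730. Names were updated for 13436 through gene identifiers of TAIR10.1, and none of its positions were used. The 22 lists by locus hold 481 genes, of which 71 had a probe set, and 22 families were matched by symbol. Glucosinolate breakdown, MYB factors, auxin response factors, cysteine-rich receptor-like kinases, aquaporins and lipid transfer proteins had no member measured here. CYP59 and CYP71 (cyclophilins) and PDF1B (a peptide deformylase) matched the patterns by name alone and were removed after their values were seen. Mitochondrial genes were found by symbol. A gene with several probe sets was represented by the one with the highest mean log2 signal.

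Named genes were the 10 largest rises and falls among called genes with a symbol and separate arrays, up to 3 called members per list and direction, 5 per direction beyond both parents and between the crosses, and a set named always where measured (CCA1, LHY and FLC were not). Other list members, such as rps16, psaB, atpB, psbA and rbcL, were chosen after their values were seen. The members and lists were chosen with earlier results of these data known.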

Additional observations from a re-analysis of the deposited data

Results flagged for a closer look

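The 2 hybrids differed in their distance from the non-thaliana parent at 229 probe sets, by a test of that difference in limma at an adjusted p below 0.05. Of the genes with a symbol that were also called against A. lyrata, those above in the lyrata cross were BHLH101 (8.26 on the log2 scale), ECS1 (4.84), AN (4.15), CaS (3.72) and YLS5 (2.65). Those below in the lyrata cross were CHAT (-4.89), HL (-2.58), psbB (-2.42), SAPX (-2.19) and ccb382 (-2.07). No group was large enough to test for a single array far from the others.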

How the results depend on the processing

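Of the 70 named calls against A. lyrata, 64 were kept with median scaling, 65 with quantile normalization and 53 of 69 on the spike-in scale. With only the arrays compared, 2087 probe sets were called higher and 2336 lower than in A. lyrata. For the hybrid against A. lyrata, higher and lower calls numbered 5223 and 168 on the spike-in scale, 700 and 353 at an adjusted p below 0.01, and 645 to 1046 and 376 to 814 with an array left out; median scaling gave 975 lower. Against A. thaliana they numbered 352 and 4067 on the spike-in scale, 46 and 135 with only the arrays compared, 204 and 253 at 0.01, and 115 to 2013 and 157 to 1570 with an array left out; quantile normalization gave 705 higher. In the halleri cross they numbered 5534 and 110 on the spike-in scale, 2291 and 2554 with only the arrays compared, 601 and 188 at 0.01, and 446 to 774 and 129 to 201 with an array left out. Between the crosses they numbered 409 and 454 with only the arrays compared, 19 and 20 at 0.01, and 11 to 61 and 13 to 46 with an array left out. A lone array left in a group was assumed to vary like the other groups. Fewer arrays enter those fits, and for the scalings the cause was not tested.

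Signs reversed on the spike-in scale for PSBY (0.16), PEX4 (0.14), ATG8D (0.05), RCA (0.91) and CML38 (0.28), and for RCA also with median scaling (0.12) and quantile normalization (0.41). CML38 ranged from -1.17 to 0.58 with an array left out. With the replicate number as a block, 1633 probe sets were called higher and 1534 lower than in A. lyrata, and 82 and 98 between the crosses. Same-numbered arrays of A. lyrata and the hybrid correlated at r = 0.0178 in their deviations from the group means, and the numbers were not taken to pair samples. Signals under 104 carry little order.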
